A study of Mus musculus with 2 samples.

Results

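The genes described here are microRNA loci of the mouse that entered the annotation late and that had reads in young hippocampus. A locus was taken when its GENCODE symbol was Gm plus digits, or Mir plus a number of 3000 or more, and when at least 10 sense-strand reads lay on it over both libraries. In all, 197 of the 2202 microRNA genes in the files met this rule, 183 with a Mir name and 14 with a Gm name. The late names cover 1580 loci, of which 17 were set aside by region or name. These 17 lie in the Dlk1-Dio3 region of chromosome 12 or inside Htr2c, or are Mir3065, Mir3074-1, Mir3074-2 and Mir3102. Of the 1563 loci left, 1184 had no sense read, 182 had 1 to 9 reads and 197 had 10 or more. The members were selected on their sense counts in these same libraries, so their levels are given as a description, and what the rule did not use (position, hairpin, mature sequence, opposite-strand reads) is set beside it. The comparison set was 279 older genes (let-7 genes and Mir numbers below 3000) that passed the same count minimum with the same regions left out.

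The tissue was labelled as a layer of hippocampus from 10-day-old males of the strain B6CASTF1/J. It is a first-generation cross of C57BL/6J and CAST/EiJ mice, so each cell carries a genome that differs in part from the reference. Total RNA was made into small RNA libraries from fragments below 30 nucleotides, and each of the 2 biological replicates is labelled with 3 males. Nothing distinguishes the replicates but the animals, both carry the same donor identifier, and the spread between them may be partly technical. No treatment, genotype or other age was compared, and an exact sign-flip test over 2 libraries cannot go below p = 0.5.

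MicroRNAs are short RNAs that guide Argonaute proteins to messenger RNAs and lower their output. Most are cut from a hairpin in a longer transcript, first by Drosha in the nucleus and then by Dicer in the cytoplasm. Bases 2 to 8 of the mature strand, the seed, do most of the target pairing. Mirtrons take another way in: the hairpin is a whole short intron, released by splicing in place of Drosha. In tailed mirtrons the hairpin sits at only 1 end of a longer intron, and the rest of the intron is trimmed away. Numbers in Mir names run roughly with the time of registration, and many late entries came from deep sequencing. Symbols of the Gm type are numbered gene models of the annotation. Of the 14 Gm members only Gm23450 matched a RefSeq mature strand, miR-935, whose number is not a late one, so its place among the late names rests on its GENCODE symbol.

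The hairpins of 3 members that fill a whole intron, and of 1 that ends where a longer intron ends, are shown first because position in the intron is the feature most of the members share. Capitals mark the first GT and the last AG of the intron where the hairpin includes them. Sequences are the GENCODE M21 transcripts (GRCm38), 5′ to 3′.
Mir7080: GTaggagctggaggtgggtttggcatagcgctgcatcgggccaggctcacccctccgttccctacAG
Mir6944: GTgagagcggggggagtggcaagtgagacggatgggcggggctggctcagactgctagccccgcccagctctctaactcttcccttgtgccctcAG
Mir3547: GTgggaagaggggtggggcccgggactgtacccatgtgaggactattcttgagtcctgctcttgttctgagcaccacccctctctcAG
Mir7044: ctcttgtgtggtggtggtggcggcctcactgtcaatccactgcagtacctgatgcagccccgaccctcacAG
Mir7080 lies at chr8:123130106-123130172 on the plus strand and fills a 67-base intron of Cpne7, a copine gene. Mir6944 at chr13:55477681-55477776 on the minus strand fills a 96-base intron of Dbn1, which encodes the dendritic spine protein drebrin. Mir3547 at chr17:25245551-25245638 on the minus strand fills an 88-base intron of Baiap3. Mir7044 at chr6:118085192-118085263 on the plus strand takes the last bases of a 705-base intron of Rasgef1a.

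The mature strands of the members with the highest levels are given next, with the seed in capitals. They are RefSeq entries on GRCm38.p6. The files count reads per hairpin, so the reads of the 5p and 3p arms of a locus were not separated.
miR-3099-5p: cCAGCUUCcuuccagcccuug
miR-3099-3p: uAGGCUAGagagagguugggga
miR-7689-5p: cCGAGGCAgccuggcuuag
miR-7689-3p: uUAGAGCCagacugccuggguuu
miR-935 (Gm23450): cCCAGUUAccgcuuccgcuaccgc
miR-7080-5p: gUAGGAGCuggagguggguuugg
miR-7080-3p: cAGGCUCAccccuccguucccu
miR-3475-5p: aAAUCAUGuacccccacagagg
miR-3475-3p: uCUGGAGGcacaugguuugaa
miR-3059-5p: uUUCCUCUcugccccauagggu
miR-3059-3p: cCUCUAGGgaagagaagguugg
miR-6540-3p: uCUGAAGCuugcuuaccucca
miR-6944-5p: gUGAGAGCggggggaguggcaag
miR-6944-3p: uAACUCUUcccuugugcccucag
The miR-6944 pair shows the intron in the mature strands: the 5p strand opens with the gu of the splice donor and the 3p strand closes with the ag of the acceptor. The miR-7080-5p strand also opens on the first intron base, while miR-7080-3p stops 4 bases before the last.

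Levels were low for most members and high for a few. Levels are counts per 1000000 counts on microRNA genes (CPM), and are given as mean ± SD over the 2 libraries. Only 2 members had a mean of at least 1000 CPM, 8 had at least 100, 46 at least 10, and 151 were below 10. The median was 3.59 CPM, against 189 CPM in the older genes. Together the members took 0.540% of the counts of replicate 1 (26001 of 4815761; exact Clopper-Pearson 95% interval 0.533 to 0.547) and 0.630% of replicate 2 (22026 of 3495401; 0.622 to 0.638). The mean was 0.585% ± 0.0638 (SD, n = 2). These intervals cover counting error only, since amplified reads are not independent molecules. The 2 highest loci held 51.3% of all members' counts, the top 7 held 74.4% and the top 11 held 80.3%. Low members rest on few reads: 71 of 197 had a sum of 10 to 20, and 42 had at least 100. A single count was worth 0.208 CPM in replicate 1 and 0.286 CPM in replicate 2.

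The highest member was Mir3099, in an intron of Usp29 at chr7:6803587-6803670 on the plus strand, with 6151 counts in replicate 1 and 7425 in replicate 2. Usp29 belongs to the imprinted Peg3 domain, where the paternal copy is expressed. Its level was 1277 CPM in replicate 1 and 2124 CPM in replicate 2, or 1701 ± 599 CPM. Mir7689, at chr5:36301570-36301628 on the plus strand, came next with 7406 and 3649 counts. It had 1291 ± 349 CPM and lies in no host gene on its own strand, opposite the sorting receptor gene Sorcs2. The order of these top 2 was not the same in both libraries, since Mir7689 was above Mir3099 in replicate 1 and below it in replicate 2.

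After these 2, the level dropped to a group of 5 loci between 228 and 332 CPM. Gm23450, with 1508 and 1224 counts, lies in the coding sequence of Cacng8 at chr7:3415066-3415156. Cacng8 encodes an auxiliary subunit of AMPA-type glutamate receptors that is typical of hippocampus. Gm23450 had 332 ± 26.2 CPM, and its reads cannot be told apart from short pieces of the Cacng8 messenger RNA on the same strand. Mir7080 had 1064 and 1239 counts (288 ± 94.4 CPM), the highest of all members at an intron end. Mir3475, on chromosome X with no host gene, had 832 and 1258 counts, or 266 ± 132 CPM. Mir3059, in an intron of the glycosyltransferase gene Mgat4c, had 1000 and 1117 counts (264 ± 79.1 CPM). Mir6540 had 895 and 945 counts (228 ± 59.8 CPM) and lies in an intron of Gap43, the growth-associated protein of axons. The means of these 5 loci overlap within their SDs, except that Gm23450 lay above Mir6540 by more than either SD.

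The other 5 of the top 12 were lower. Mir6944 had 555 and 338 counts (106 ± 13.1 CPM). Mir3093, in an intron of Gm3764, had 430 and 253 counts (89.3 and 72.4 CPM). Mir6236 had 398 and 264 counts (79.1 ± 5.03 CPM). Their values lay close together in both libraries. Mir5099, with no host gene, had 433 and 176 counts (70.1 ± 28.0 CPM), and Mir3080 in an intron of the transcriptional regulator gene Tcf20 had 210 and 109 (37.4 ± 8.78 CPM). Both were lower in replicate 2 than in replicate 1, and no value of Mir3080 reached the lower value of Mir5099.

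**Figure D1:**
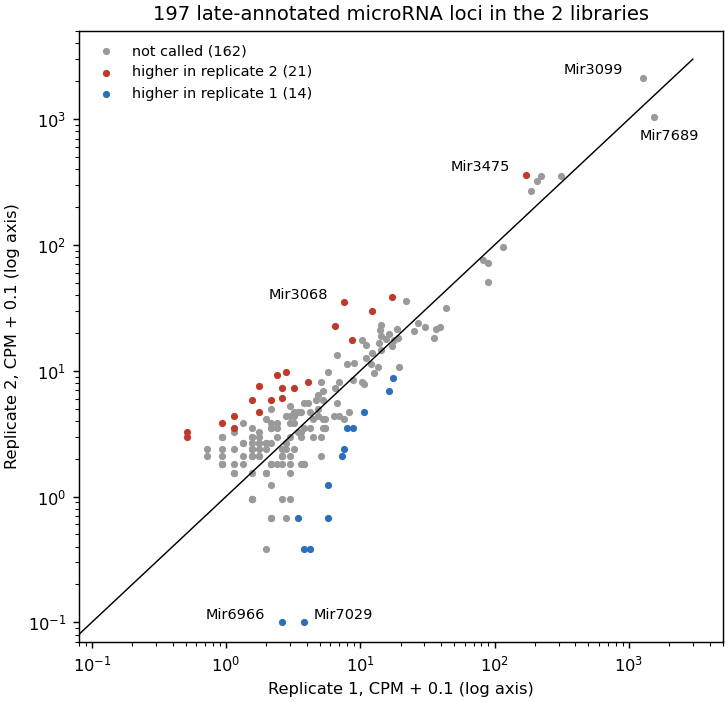
Level of each of the 197 loci in replicate 1 (x) and replicate 2 (y), in CPM plus 0.1 on log axes, with the line of equal levels. Mir3099 and Mir7689 stand above 1000 CPM, and most points lie below 10 CPM, where the spread around the line is widest.

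Position at the end of an intron, which the rule did not use, was common among the members and rare among the older genes. Of the 197 hairpins, 110 (55.8%) had an end within 5 bases of the end of an annotated intron on the same strand, against 5 of 279 older genes (1.79%). Among all 1563 eligible late loci it was 224 (14.3%), and among the 550 with a Mir name it was 221. Position also went with the number in the name, which the rule did use, so the contrast with older genes is not independent of the rule. The 5 older genes were Mir1231, Mir1981, Mir1982, Mir1224 and Mir877, named after their positions were seen. Of the 110, 8 had both ends at the ends of the same intron, 98 ended at the 3′ end of a longer intron and 4 began at its 5′ end. In 100 of the 110 the last base of the hairpin was the last base of the intron, and 100 ended in AG. Since AG is the splice acceptor that closes an intron, the AG follows from the position and is no separate result. Elsewhere, 6 of 87 member hairpins and 23 of 274 older ones ended in AG. The introns filled whole by members were 67 to 96 bases long, and over all 110 the introns ran from 66 to 19696 bases with a median of 381.5.

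**Figure D2:**
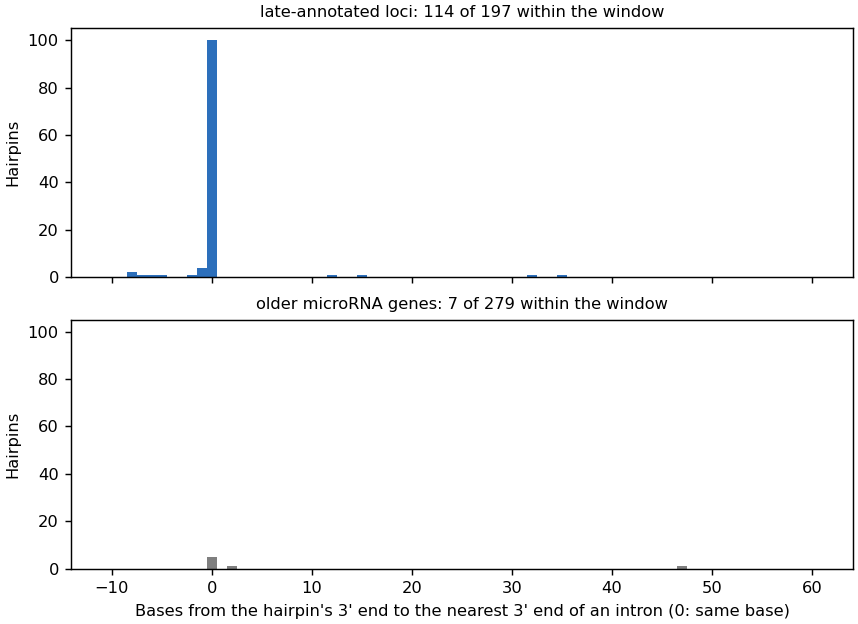
Number of hairpins by the distance, in bases, from the hairpin's 3′ end to the nearest 3′ end of an intron, for the members (top) and the older genes (bottom), from -10 to 60 bases. Of the 114 member hairpins in the window, 100 stand at 0, and 5 of the 7 older ones do.

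The mature strands followed the intron ends. RefSeq gave mature sequences for 171 of the 197 members, 306 strands in all, and for 102 of the 110 at an intron end. Of 95 annotated 3p strands from hairpins at a 3′ intron end, 77 stopped on the last intron base, and 92 stopped within 2 bases of it. The number that ended in AG was also 77, which again follows from the position. All 6 annotated 5p strands of hairpins that fill an intron started on its first base with GU. In hairpins at the 3′ end only, 87 annotated 5p strands started 13 to 19638 bases from the intron's 5′ end, with a median of 414. These are properties of the annotation, since the reads of each strand were not counted apart.

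A larger share of intron-end loci than of other late names reached the count minimum. Of the 221 such loci with a Mir name, 109 (49.3%) had at least 10 counts, against 74 of 329 (22.5%) elsewhere. Among Mir loci inside a host gene, the share elsewhere was 58 of 194 (29.9%). Loci that share a run of 20 or more bases with another microRNA gene can lose reads to the class that aligns to several places. Without them the shares were 49.5% of 218 loci and 24.1% of 290. The blocks of names did not follow this order: 28.5% of eligible loci in the 6000 block and 36.7% in the 7000 block reached the minimum, against 43.8% of those numbered from 3000 to below 5000. Yet 50 of 59 members in the 6000 block and 46 of 66 in the 7000 block lay at an intron end, against 10 of 35 in that lowest block. In the 5000 block it was 3 of 18, in the 8000 block 0 of 5, and among the Gm names 1 of 14.

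The 8 hairpins that fill an intron ranged widely in level. Mir7080 and Mir6944 stood above 100 CPM, and Mir3547 had 129 and 84 counts, or 25.4 ± 1.95 CPM. The other 5 were Mir7070 in Fbxw9 (32 and 46 counts), Mir6958 in Dennd6b (10 and 20), Mir7068 in Cherp (15 and 15), Mir6970 in Skiv2l (11 and 13) and Gm24589 in Pkd1 (14 and 3). They were named as members of a class of 8, and their means lay between 1.88 and 9.90 CPM. Hairpins at 1 intron end were lower as a class, with a median of 2.88 CPM and a highest value of 26.7 CPM. That highest value was Mir7044, with 170 and 63 counts (26.7 ± 12.2 CPM). Mir7047 followed with 58 and 104 counts (20.9 ± 12.5 CPM) and Mir3064, at the end of an intron of the RNA helicase gene Ddx5, with 90 and 75 (20.1 ± 1.96 CPM). These 3 values do not differ beyond their spread. All intron-end members together held 16.3% of the members' counts, or 0.0958% ± 0.0139 of all counts (SD, n = 2), although they made up 55.8% of the loci. Reads from intron pieces on the same strand cannot be told apart from reads of these hairpins.

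**Figure D3:**
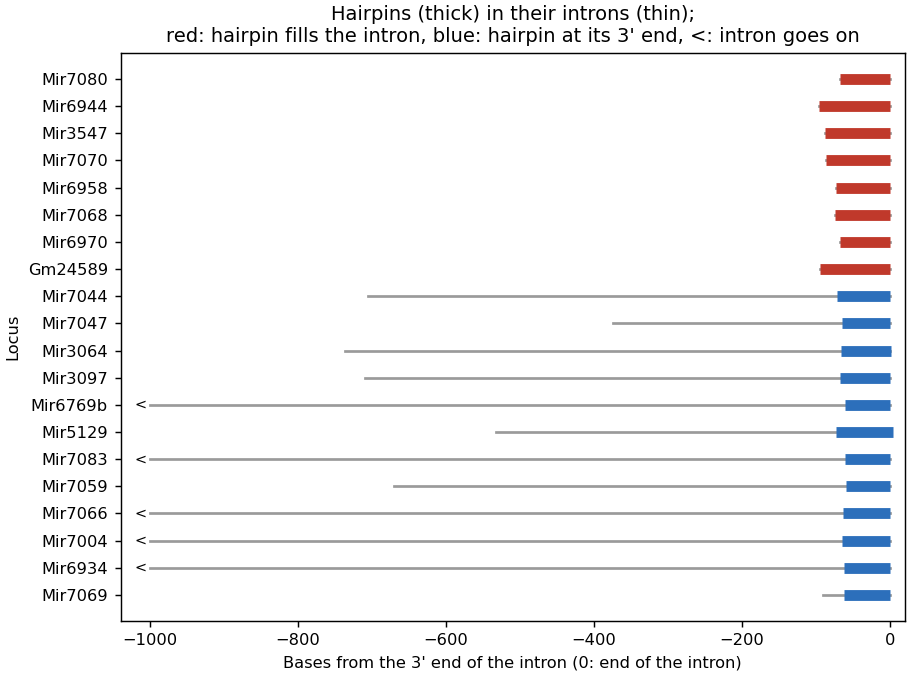
Position of the hairpin (thick bar) in its intron (thin line), in bases from the intron's 3′ end, for the 8 members that fill an intron (red) and the 12 with the highest level at a 3′ end (blue). The axis stops at 1000 bases, and every bar shown reaches to within 5 bases of 0.

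Members away from intron ends carried most of the reads. The 35 hairpins inside other introns held 41.2% of the members' counts, led by Mir3099, Mir3059 and Mir6540, and had a median of 4.42 CPM. The 16 with no host gene and no overlapping gene of the other kinds held 32.3%, led by Mir7689, Mir3475 and Mir6236, with a median of 15.05 CPM. In the older set, 135 of 279 genes (48.4%) lay in other introns and 65 (23.3%) had no host. A protein-coding host on the same strand held 172 of the 197 members.

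Exons held 19 members, with 8.10% of the members' counts. Gm23450 and Mir7658 lay in coding sequence. In untranslated regions, 7 lay in a 5′ UTR (3 of them also in a non-coding transcript) and 2 in a 3′ UTR. Another 3 crossed the edge of the coding sequence, and 5 lay only in exons of non-coding transcripts. Mir3057, in a non-coding transcript of Apba3, had 175 and 75 counts (28.9 ± 10.5 CPM). Mir3078 had 105 and 124 counts (28.6 ± 9.67 CPM) in an exon of Mir124a-1hg, the host transcript of the neuronal microRNA gene Mir124a-1, which lies 443 bases away on the same strand. Mir124a-1 itself had 13 and 11 counts. It shares runs of at least 20 bases with other microRNA genes, whose common reads are not in these counts, so the levels of these neighbours cannot be ranked. A further 4 members were exonic or intronic by transcript, and 8 crossed an exon edge.

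Structured RNAs overlapped 5 members: Gm49347 overlapped Snora74a, Mir5121 overlapped Snord33, Mir6516 the small RNA gene Gm26083, Mir3069 Scarna13, and Gm47295 shared sequence with genes of the 7SL RNA of the signal recognition particle. Small nucleolar and small Cajal body RNAs guide chemical changes of other RNAs. Gm49347 had 68 and 80 counts (18.5 ± 6.20 CPM), Mir5121 had 68 and 51 (14.4 ± 0.333 CPM) and Mir6516 had 49 and 61 (13.8 ± 5.15 CPM). Pieces of those RNAs cannot be told apart from microRNA here. Nuclear transfer RNAs were not among the kinds searched, so any member that overlaps them would stand in another class. Of a list of 6 names often treated as fragments of ribosomal RNA, Mir6236 and Mir6240 were among the genes counted. Mir6240 had 83 and 55 counts (16.5 ± 1.06 CPM), and neither differed between the libraries by the test described below (log2 ratio -0.13 for each).

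**Figure D4:**
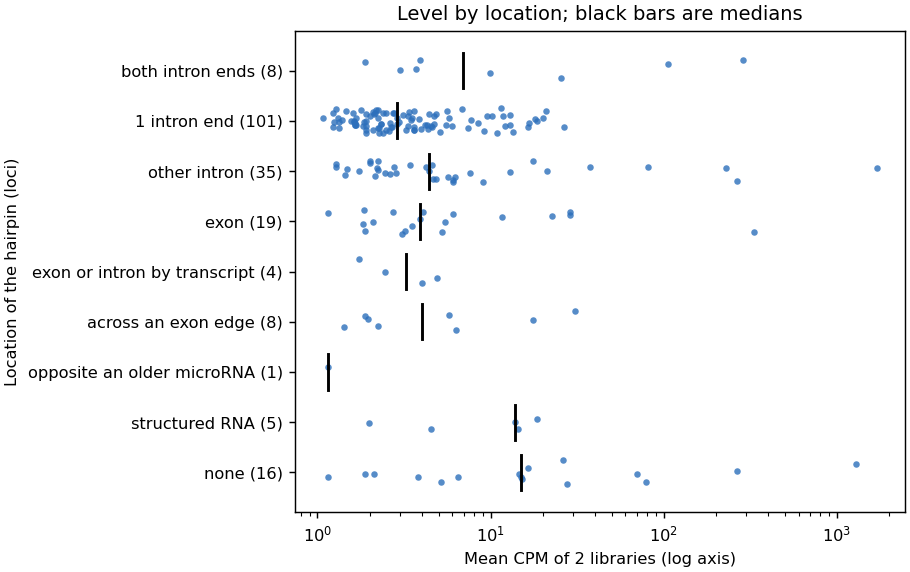
Mean CPM of the 2 libraries on a log axis for each member, by the location of its hairpin, with the median as a black bar. The 101 hairpins at 1 intron end have a median of 2.88 CPM, and the loci above 100 CPM lie in 4 of the classes.

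Gm members were few and rested mostly on low counts. Of 1013 eligible Gm loci, 14 (1.38%) reached the minimum, against 183 of 550 Mir loci (33.3%). Copies were common among them, with 815 of the 1013 Gm loci sharing a run of 20 bases with another microRNA gene, against 42 of the 550 Mir loci. Of the 1184 eligible loci without a sense read, 826 had such copies, so a count of 0 there does not show that the locus is silent. After Gm23450, the highest were Gm23935 (145 and 78 counts, 26.2 ± 5.51 CPM), Gm49347, Gm24197 in Mast1 (39 and 16 counts) and Gm26117 in Adgrb1 (42 and 12 counts). Gm23935 shares runs of at least 20 bases with 5 other microRNA genes, and reads from such runs would not be in its count. Only 10 members had copies, against 78 of the 279 older genes.

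The member hairpins were shorter and richer in GC than the older ones, with less of the sequence paired. The annotated length had a median of 67 bases (43 in Mir7238 to 137 in Mir8111), against 85 in the older genes. Median GC content was 58.7% (35.9% in Mir3083 to 91.6% in Gm26117) against 49.4%. The predicted folding energy per base was alike, at a median of -0.42 kcal/mol against -0.43, with 65.7% against 72.7% of bases paired. Intron-end hairpins had a median length of 64.5 bases and a median GC content of 59.1%, and the other 87 members 82 bases and 56.1%. Their median folding energy per base was -0.396 kcal/mol with 64.2% of bases paired, against -0.448 and 68.3% in the other members. These are counts and medians over annotated genes, with no test over genes.

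**Figure D5:**
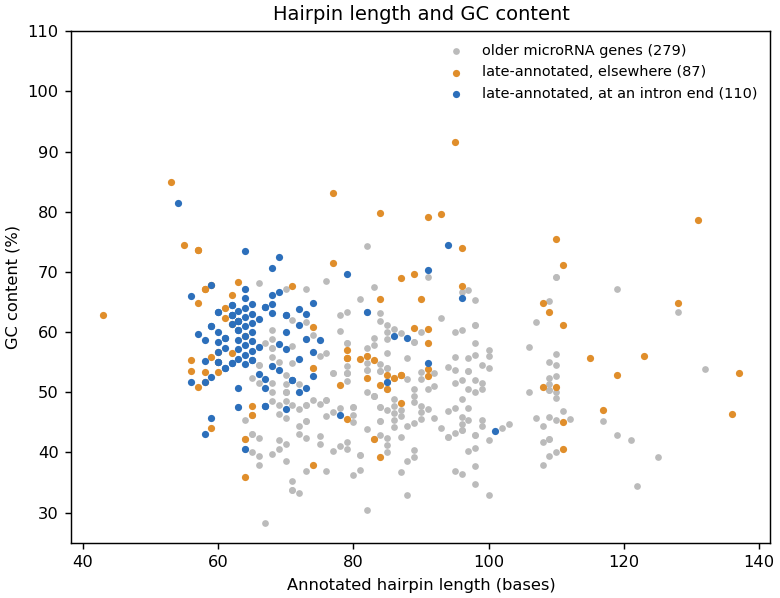
GC content (%) against annotated hairpin length (bases) for members at an intron end, members elsewhere and older genes. The intron-end hairpins crowd at the short end around the median of 64.5 bases, and the older genes spread around a median of 85 bases and 49.4% GC.

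Few seeds were shared between members. The 306 mature strands of the members held 295 distinct seeds, 11 of which occurred in 2 members each, 22 members in all. The pairs below join loci of unlike location or level, and were chosen after they were seen to show the shared letters.
miR-7689-5p: cCGAGGCAgccuggcuuag
miR-5620-5p: aCGAGGCAggggcuuugacugug
miR-3064-5p: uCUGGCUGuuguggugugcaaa
miR-3085-3p: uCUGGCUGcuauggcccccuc
Mir5620 had 20 and 12 counts, far below Mir7689. Mir3085, with no host gene, had 82 and 134 counts (27.7 ± 15.1 CPM), beside 90 and 75 for Mir3064 at its intron end. The older strands searched for shared seeds reach beyond the 279 older genes compared above. They include genes that missed the count minimum or lie in the regions left out. Of their 649 distinct seeds, 15 recurred in 18 member strands. Thus miR-3475-5p shares its seed with miR-96-3p, miR-5129-3p with miR-455-5p, and miR-7069-3p with miR-18a-3p. How many seeds would be distinct or shared by chance was not computed, so these counts are no result about the members. A shared seed is a match of letters, and no target was measured.

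The libraries were compared gene by gene with an exact two-sided binomial test on sense counts given the library totals, adjusted by Benjamini-Hochberg over all 540 genes with at least 10 counts. A gene was called at an adjusted p below 0.05 with a level at least 2-fold apart. This compares 2 libraries of the same group and carries no information on a condition. Its p-values set the difference against counting error alone, with amplified reads taken as independent, and the libraries also varied beyond it (a common biological coefficient of variation of 38.6%). Of the 197 members, 35 (17.8%) were called, against a background of 18.7% of all genes tested. Higher in replicate 2 were 21 members, where the background was 11.5%, and higher in replicate 1 were 14, where it was 7.22%. Under this rule the members' share was near that of all genes tested and is no result about them. The direction depended on scaling: with TMM sizes the split was 18 to 17, and with DESeq2 size factors it was 13 to 22. Of all genes tested, 17.8% were called with TMM sizes and 18.3% with DESeq2 factors, with no background by direction. The median log2 ratio (replicate 2 over replicate 1, 0.5 counts added) of all genes tested was 0.17 by totals, 0.10 by TMM and 0.00094 by DESeq2 factors, and that of the members was 0.23, 0.16 and 0.06.

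Among members at an intron end, 13 were called higher in replicate 2 and 2 higher in replicate 1. Elsewhere these numbers were 8 and 12 of 87. By library totals, the 13 of 110 lay near the background of 11.5%, and the 8 of 87 lay below it. Against the background of 7.22%, the 2 of 110 were fewer and the 12 of 87 were more. The median log2 ratios were 0.30 and 0.04. With DESeq2 factors the calls became 9 and 7 at intron ends and 4 and 15 elsewhere, with medians of 0.13 and -0.13. No background by direction was taken for that scaling. The difference between these location classes was not tested.

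The share called was alike in both sets, with 35 of 197 members (17.8%) and 50 of 279 older genes (17.9%). Across the 197 members, log2(CPM + 1) had a Pearson correlation of 0.898 between the libraries, and across the 279 older genes 0.971. Genes are not independent replicates, the count minimum cuts the range, and most members have few counts. The median absolute log2 ratio was 0.64 in the members and 0.47 in the older genes. In all, 139 members lay within 2-fold. Of the 42 members with at least 100 counts 8 were called, and of the 155 below that 27, both near the background of 18.7%. Of the top 12 by level, only Mir3475 was called, with 173 CPM in replicate 1 and 360 CPM in replicate 2. Its log2 ratio of 1.06 (adjusted p = 1.89e-61 by the exact binomial test) fell below the 2-fold minimum with TMM sizes (0.99) and DESeq2 factors (0.89). Mir5099 moved the other way, from -0.83 and not called to -1.01 and called with DESeq2 factors.

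The members with the largest called ratios were mostly low. Highest in replicate 2 were Mir7049 (2 and 11 counts), Mir7093 (2 and 10), Mir3068 (36 and 122), Mir3069 (8 and 26) and Mir7118 (4 and 13), with log2 ratios from 2.05 to 2.66. Among these 5 only Mir3068 rested on more than 100 counts over both libraries. It lies in an intron of the demethylase gene Alkbh1, had 7.48 and 34.9 CPM, and its log2 ratio of 2.21 stayed between 2.04 and 2.21 under all 3 scalings (adjusted p = 1.35e-18, exact binomial test). Lowest were Mir7029 (18 and 0 counts), Mir6966 (12 and 0), Mir7220 (20 and 1), Mir5100 (18 and 1) and Mir5131 (27 and 2). A count of 0 allows up to 0.858 CPM in replicate 2, taking 3 counts as the limit. The observed replicate 1 level was 4.35-fold that limit for Mir7029 and 2.90-fold for Mir6966. The counting error of replicate 1 is not in these values, so they are not lower bounds. Mir7220 lies in Camk2a, the kinase gene of excitatory synapses, 4140 bases from Mir6982, which had 60 and 33 counts and was not called. The difference between these neighbours was not tested, and the pair was chosen after their values were seen. The only other shared host was Skiv2l, with Mir6970 and Mir6971 3229 bases apart.

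A few members carried reads on the opposite strand, which the rule did not use. Antisense counts were 0 in 188 members and above 0 in 9, and they exceeded the sense counts in 3. Mir3107 had 7 and 3 sense but 152 and 99 antisense counts, the same numbers that Mir486, a microRNA gene of red blood cells on the opposite strand, had as its sense counts. In turn, the antisense counts of Mir486 were 7 and 3. Mir3083 had 31 and 79 sense and 28 and 21 antisense counts, with 87.5% of the bases of its hairpin paired in the predicted fold. The median folding energy per base was -0.61 kcal/mol in the 9 loci with antisense reads and -0.42 in the 188 without. Gm23134, inside an intron of Blcap and opposite the imprinted gene Nnat, had 6 and 6 sense and 12 and 4 antisense counts, and it shares a run of at least 20 bases with Mir708. Mir708 had 12700 and 5923 counts.

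At the count minimum, 10 members had a sum of exactly 10: Gm25749, Mir3075, Mir3107, Mir5621, Mir6908, Mir6913, Mir6975, Mir7087, Mir7226 and Mir7685. Just below it, 13 loci had 9 counts: Gm25745, Gm47277, Mir3094, Mir5623, Mir6922, Mir6947, Mir6995, Mir7034, Mir7061, Mir7081, Mir7085, Mir7662 and Mir7668. Among the members at 10, Mir6913 had 9 and 1 counts and Mir6908 had 5 and 5. Of the loci at 9, Mir7662 had 9 and 0 and Mir7034 had 4 and 5. Even and uneven splits occurred on both sides of the limit.

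Both libraries had the markers of the labelled tissue and small amounts of others. Of all reads, 38.9% and 34.6% were counted on genes in replicates 1 and 2, and 37.7% and 39.8% fitted several places. The 19 neuronal microRNA genes took 8.22% and 10.7% of counts, with none at 0 and 2 called. Calls in these lists stand beside 18.7% of all genes tested. A listed gene below the count minimum of the test could not be called, so a list can hold more genes than were tested. Mir139 and Mir149 were the highest of the 19 (means of 44583 and 22382 CPM) and went opposite ways. Mir139 had 153237 and 200448 counts, and Mir149 had 122842 and 67309. Mir124a-1 and Mir9-2 had only 2.92 CPM each, so the summed share does not describe each gene. The 3 red blood cell genes took 0.123% and 0.00764%, and 2 of the 3 were called. Mir451a had 5505 and 145 counts and Mir144 had 263 and 23. Mir486 had 152 and 99 counts (31.6 and 28.3 CPM), so the 3 genes did not move alike. The 5 genes of choroid plexus and ciliated cells took 0.258% and 0.533%, and 3 were called. Endothelial Mir126a took 1.49% and 0.930%, the 2 mural genes (1 called) 0.396% and 0.439%, the 2 oligodendrocyte genes 0.0998% and 0.172%, and the 4 myeloid genes (2 called) 0.0495% and 0.0906%. The liver gene Mir122 took 0.00395% and 0.00315%, and of 5 striated muscle genes 4 were at 0 and 1 was called. The part of these other cells in the differences between the libraries was not tested. In tissue RNA, fewer cells of a type cannot be told apart from less RNA per cell.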

How the data were processed

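The values were raw read counts per microRNA gene, deposited by the authors as 1 table per library with 3 count columns (unstranded and each strand) and 4 lines of totals. Per the file deposited beside them, reads were placed on mm10 and counted on GENCODE M21. Aligner and counter: not given in the sources used here. The stranded column with the larger total was taken as sense. Reads that align to several places are a line of totals and are in no gene's count, and the lines of totals (61.1% and 65.4% of the reads of replicates 1 and 2) stayed out of library sizes and tests.

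All 2202 identifiers matched GENCODE M21, which gave positions, hosts, introns and hairpins. An intron end within 5 bases of a hairpin end, on the same strand, counted. Copies share 20 bases. Folding used RNAfold 2.7.2. Log2 ratios had 0.5 counts added, and CPM is per 1000000 counts on genes. With 1 group, edgeR 4.0.16 gave only TMM sizes and a common biological coefficient of variation of 38.6% over 427 genes, and DESeq2 1.42.0 only size factors. Scripts ran in R 4.3.3 and Python 3.11.15 with SciPy 1.17.1, pandas 2.3.3 and numpy 2.4.6. The gene-by-gene test was run on simulated data with counting error only. That simulation cannot show how the test performs under the wider variation of these libraries.

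The members and lists were chosen with earlier results of these data known. Named genes were the 12 members with the highest mean CPM, the top 5 Gm members, the 5 highest and 5 lowest called ratios, the top 3 of each location, members at 10 and loci at 9 counts, and the ribosomal list (Mir5102, Mir5105, Mir5109, Mir5115, Mir6236 and Mir6240). Other genes were named after their values were seen. Alternatives covered scaling, count and ratio minimums, strand, copies, tolerances and each replicate left out.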

Additional observations from a re-analysis of the deposited data

Results flagged for a closer look

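Reads on the strand opposite a member were outside the main measurement and exceeded the limit of 3 counts in at least 1 library at 6 members. Their sums over both libraries were 251 at Mir3107, 49 at Mir3083, 38 at Mir5620, 16 at Gm23134, 11 at Mir3086 and 5 at Mir5132. At Mir3107 they equalled the sense counts of Mir486. Mir5620, opposite Clcn4, had 29 and 9 antisense beside 20 and 12 sense counts in replicates 1 and 2. Mir3086 had 2 and 9 antisense beside 51 and 16 sense counts, and Mir5132 had 4 and 1 beside 25 and 20.

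A locus spelled mmu-mir-3535, which the naming rule leaves out although its number is above 3000, had 370 sense counts (155 and 215), or 32.2 and 61.5 CPM.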

How the results depend on the processing

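The count of members called (35) was 11 of 61 tested with at least 50 counts (18.0%, against 18.7% of all genes tested). Without a ratio minimum it was 54 (27.4%, against 55.7% of all genes tested). With a 1.5-fold minimum it was 48 (24.4% against 32.2%). In these last 2 settings the members' share was below that of all genes. The count stayed between 33 and 48 with other scalings, a minimum of 1 count, a 1.5-fold minimum, 2 counts added, unstranded counts and copies left out. Of the calls, 32 were shared with TMM sizes and 27 with DESeq2 factors. All 10 largest called ratios kept their call wherever tested, though only Mir3068 was tested at 50 counts. The members' share of all reads, in place of counts on genes, was 0.214% ± 0.00548. At least 20 counts left 129 members, and at least 50 left 61. A minimum of 5 counts in 1 replicate alone gave 197 members from replicate 2 and 203 from replicate 1. The shares of 0.540% and 0.630% in the single replicates are those of the original 197 members, with no new choice of members. A shared run of 25 bases left 6 members with copies. Intron-end members numbered 109 with a tolerance of 2 bases and 115 with 10. The comparison of libraries cannot be run without a replicate. No paired analysis was possible because there is only 1 group. Depth limits the 71 members with 10 to 20 counts most.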
